A study of Mus musculus with 8 samples.

Results

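Cadherins and the non-clustered protocadherins were followed between dorsal and ventral medial entorhinal cortex (MEC), the cortical area that holds grid cells. This family was chosen with earlier results of these data known. Members were taken by gene symbol, as every gene named Cdh or Pcdh followed by a number, with or without a final x. The rule left out the clustered Pcdha, Pcdhb and Pcdhg genes. This gave 36 of the 38553 genes in the deposited table, namely 23 cadherins and 13 protocadherins, under 35 symbols because *Pcdh15* has 2 gene identifiers. RNA-Seq was available for 4 dorsal and 4 ventral libraries from 13 male C57BL/6JolaHsd mice aged 8 weeks, for which the labels name no mutation and no drug. Each mouse gave 1 sagittal slice of 400 µm through the right MEC, the dorsal and ventral parts were dissected apart, and the tissue of 3 or 4 mice was pooled for each library, so replicate error here is between pools of tissue and not between single animals. The same 4 groups of mice gave both regions, and which libraries share a group could not be told, so the 8 libraries were compared as if independent. RNA integrity numbers ran from 7.1 to 8.5, and cDNA was amplified from 120 ng of RNA. Levels are FPKM, the fragments of a gene relative to the length of its exons and to all fragments mapped in the library. Total FPKM still differed between libraries, as given below.

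Libraries were assigned to regions by the deposited comparison table, whose conditions carry no region name but hold the values that the study lists as dorsal and ventral FPKM. Its means were matched within 0.1% by the means of the libraries used here as dorsal and as ventral for 14956 of 14970 genes (99.9%). For 4 libraries the column header gives the opposite region, namely dorsal libraries 2 and 4 and ventral libraries 1 and 3. The regions used here therefore rest on this match and not on the headers, and values under the headers' regions are given beside the main result. Total FPKM ran from 298763 to 341402 over the libraries. The fragment totals were not used, so the depth behind each value is unknown here. As a check of the tissue, all 4 excitatory neuron markers passed the filter, of which *Slc17a7* averaged 107 FPKM in dorsal and 105 FPKM in ventral MEC and 1, *Slc17a6*, was called higher in dorsal MEC (10.8 and 7.21 FPKM), while 3 of the 4 choroid plexus markers, *Ttr* among them, lay below 0.1 FPKM and none was tested. All 10 oligodendrocyte markers were called higher in dorsal MEC by the test described below, with a summed level of 921 to 1222 FPKM against 502 to 666 FPKM. Among 7 leptomeningeal fibroblast markers, 5 were tested and 2 were called higher in ventral MEC, with a summed level of 67.8 to 73.2 FPKM in dorsal and 109 to 123 FPKM in ventral libraries. The interneuron markers *Sst* and *Pvalb* were called in opposite directions, *Sst* at 109 and 220 FPKM and *Pvalb* at 15.7 and 6.63 FPKM in dorsal and ventral MEC. Of 5 superficial layer markers tested, *Wfs1* was called higher in dorsal MEC (76.6 and 52.5 FPKM) and *Calb1* in ventral MEC (4.57 and 7.85 FPKM). None of the 5 deep layer markers tested was called, and all 5 were higher in ventral MEC. Of 4 genes listed for the dentate gyrus, 2 were tested and went in opposite directions. *Calb2* was called higher in ventral MEC (0.785 and 3.16 FPKM), while *Prox1* was lower there without a call (4.48 and 3.49 FPKM). The others were not tested, *C1ql2* at 0.0492 and 0.215 FPKM and *Dsp* at 0.0919 and 0.0256 FPKM. The 4 genes did not move together, so they do not measure the content of dentate gyrus. The part of these cell types in the changes of cadherins described below was not tested. In bulk tissue such as this, fewer cells of a type and less RNA per cell cannot be told apart.

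Cadherins are calcium-dependent adhesion proteins whose extracellular repeats bind partners on the neighboring cell. Type I and type II cadherins hold on to the actin cytoskeleton through catenins bound to their tails, whereas the non-clustered protocadherins, most of which fall into delta-1 and delta-2 classes, lack the catenin-binding site, and several delta-2 members recruit the WAVE actin regulator instead. In the developing brain different neurons carry different sets of these proteins, which take part in axon sorting and in the choice and maintenance of synapses.

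Most of these genes were expressed in the MEC. A mean over the 8 libraries of at least 1 FPKM was reached by 25 of the 36 members, 15 had at least 10 FPKM, and 11 lay below 1 FPKM, of which 7 lay below 0.1 FPKM. The summed level of all members was 518 FPKM in dorsal and 521 FPKM in ventral MEC, and the 5 highest members made up 53.1% of it. The delta-1 protocadherin *Pcdh9* alone supplied 22.0% and ranked first in both regions, followed in both by *Cdh2*, which encodes N-cadherin, and by *Pcdh1*. The order below them differed, as *Cdh8* took place 4 in dorsal and place 9 in ventral MEC and *Cdh13* took place 10 in dorsal and place 4 in ventral MEC.

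**Figure D1:**
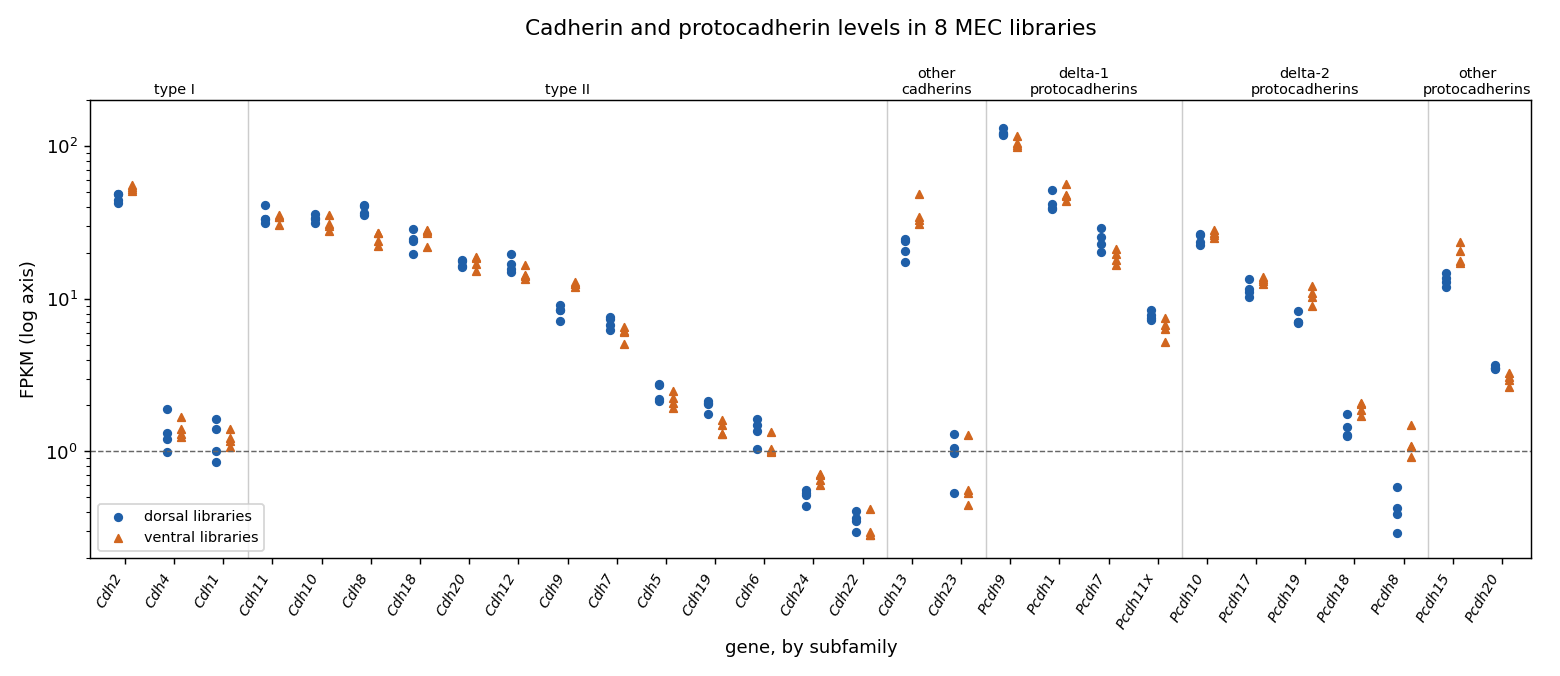
FPKM on a log axis of the 29 members with a mean of at least 0.3 FPKM, 1 point per library, with dorsal libraries as circles and ventral libraries as triangles and the dashed line at 1 FPKM. Levels span from *Pcdh9*, at 98.1 to 131 FPKM, to members below 1 FPKM such as *Cdh22*, and for 9 of the 25 tested genes the points of the regions do not overlap.

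The regions were compared with limma, on log2(FPKM + 1), over 13674 genes that averaged at least 1 FPKM and carried the authors' mark of enough alignments. Calls required an adjusted p (Benjamini-Hochberg) under 0.05 together with means at least 1.2-fold apart. Of the 25 members tested, 4 were called higher in ventral MEC (*Cdh9*, *Cdh13*, *Pcdh15* and *Pcdh19*), against 1.45% of all genes tested, and 1 was called higher in dorsal MEC (*Cdh8*), against 2.15% of all genes. In either direction 5 of 25 members (20%) were called against a background of 3.60%. Rescaling all libraries to equal totals, which shifted the median change of all genes by less than 0.1, left the numbers of called members as they were and moved the calls over all genes from 198 ventral and 294 dorsal to 201 ventral and 195 dorsal. The dorsal and ventral libraries of 9 tested members did not overlap, 5 with the ventral and 4 with the dorsal libraries higher, where 11.1% of all genes tested showed no overlap. An unadjusted p under 0.05 was found for 13 members, against 16.0% of all genes. These shares are given without a test, as the members were chosen with earlier results of these data known.

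These changes had no common direction. On the log2(FPKM + 1) scale, on which the fold change of low genes is understated, 13 members were higher in ventral and 12 in dorsal MEC, and the median fold change of the 25 members was 0.01, against −0.01 for all genes. The median size of the change regardless of its sign was 0.19 for the members and 0.10 for all genes tested, and among genes of at least 5 FPKM it was 0.20 for 18 members and 0.09 for 8709 genes. The spread between libraries of 1 region, as the median SD of log2(FPKM + 1), was 0.13 for the members and 0.14 for all genes. Grouped by the headers instead, limma called 0 of the 25 members and 1 of all genes, and an unadjusted p under 0.05 was found for 0 members and 721 genes. The log2 fold changes of *Cdh8*, *Cdh9*, *Cdh13* and *Pcdh19* changed sign in that grouping, and that of *Pcdh15* was 0.04. Each header region holds 2 libraries used here as dorsal and 2 used here as ventral. A difference between the regions used here therefore cancels in that grouping, and the signs there do not test it. In the 4 libraries on which header and comparison table do not differ, limma called 0 members and 0 of all genes, while 4 members and 1240 genes had an unadjusted p under 0.05. In that fit of 2 against 2 libraries the log2 fold changes were −0.39 for *Cdh8*, 0.44 for *Cdh9*, 0.49 for *Cdh13*, 0.57 for *Pcdh15* and 0.29 for *Pcdh19*. Their limma adjusted p ran from 0.33 to 0.59. The direction of these 5 genes could not change there, because their dorsal and ventral libraries do not overlap.

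The promoters of the called members, which the choice of members did not use, differed in their content of CG dinucleotides. The 250 bases before the RefSeq start site on GRCm38.p6 are printed below for the called members with an entry in the table and for *Pcdh8*, which was called when genes of lower FPKM were admitted. Capitals mark CG dinucleotides and, where present, the hexamer TATAAA.
Cdh8: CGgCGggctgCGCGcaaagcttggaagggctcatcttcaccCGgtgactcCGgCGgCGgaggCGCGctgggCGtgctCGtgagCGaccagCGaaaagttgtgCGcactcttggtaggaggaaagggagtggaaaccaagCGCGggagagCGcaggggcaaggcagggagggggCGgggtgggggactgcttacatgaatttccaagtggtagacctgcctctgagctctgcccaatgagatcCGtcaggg
Cdh9: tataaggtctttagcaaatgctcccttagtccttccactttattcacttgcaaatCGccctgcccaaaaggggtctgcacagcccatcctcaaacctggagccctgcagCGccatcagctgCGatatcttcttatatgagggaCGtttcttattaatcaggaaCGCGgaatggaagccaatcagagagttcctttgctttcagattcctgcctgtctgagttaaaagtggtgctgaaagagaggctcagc
Pcdh15: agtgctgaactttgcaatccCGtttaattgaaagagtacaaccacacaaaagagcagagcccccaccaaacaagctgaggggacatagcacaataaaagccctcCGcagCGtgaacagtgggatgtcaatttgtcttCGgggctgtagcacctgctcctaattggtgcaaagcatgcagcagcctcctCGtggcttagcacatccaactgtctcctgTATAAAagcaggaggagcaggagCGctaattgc
Pcdh19: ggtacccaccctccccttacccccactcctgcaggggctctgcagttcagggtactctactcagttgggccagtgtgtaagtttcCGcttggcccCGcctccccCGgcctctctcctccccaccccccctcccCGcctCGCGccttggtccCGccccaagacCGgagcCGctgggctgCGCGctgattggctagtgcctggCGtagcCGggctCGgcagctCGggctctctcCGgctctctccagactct
Pcdh8: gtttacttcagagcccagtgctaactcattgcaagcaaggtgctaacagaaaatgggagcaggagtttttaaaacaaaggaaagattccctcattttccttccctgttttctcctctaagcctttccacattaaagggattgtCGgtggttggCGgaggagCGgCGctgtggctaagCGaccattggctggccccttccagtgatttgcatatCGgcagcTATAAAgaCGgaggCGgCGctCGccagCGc
The *Cdh8* window is chr8:99416472-99416721 on the minus strand, inside the deposited locus, which begins farther upstream. The window of *Cdh9* is chr15:16728665-16728914 on the plus strand. That of *Pcdh15* is chr10:73821617-73821866 on the plus strand, inside the deposited locus, which begins farther upstream. The windows of *Pcdh19* and *Pcdh8* are chrX:133688994-133689243 and chr14:79771313-79771562, both on the minus strand. That of *Pcdh19* too lies inside its deposited locus. The dorsal *Cdh8* had 20 CG dinucleotides, a number that 17.9% of the 32851 promoters in the reference table reach. Among ventral genes *Pcdh19* had 16 (25.4%), *Pcdh8* had 11 (35.6%), and *Cdh9* and *Pcdh15* had 6 each (50.4%), the median of all promoters. *Cdh13*, also called ventral, has no entry, so the regions are not compared by these numbers. TATAAA, searched on both strands, is held by 12.37% of promoters of this length. Of the 22 members with a promoter entry it was found for *Pcdh15*, 33 bases before the start, and for *Pcdh8*, 30 bases before it. Over the 25 promoters of these 22 members the median number of CG dinucleotides was 10.

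*Cdh8*, a type II cadherin of synaptic contacts, was the dorsal member. The deposited table places it at chr8:99011886-99733438 (GRCm38), a protein-coding gene on the minus strand. Its level in dorsal libraries 1 to 4 was 36.4, 40.4, 35.3 and 41.0 FPKM, and in ventral libraries 1 to 4 it was 22.2, 27.2, 23.8 and 26.9 FPKM. The lowest dorsal library thus lay above the highest ventral one. The means were 38.3 ± 2.82 FPKM in dorsal and 25.0 ± 2.41 FPKM in ventral MEC (SD, n = 4 libraries each), a 1.53-fold difference, and limma gave a log2 fold change of −0.60 (SE 0.08, adjusted p = 0.0034). An antisense gene overlaps it, *Gm15679*, at a mean of 0.177 FPKM, and the strand of the libraries is not given in the sources used here, so that reads of the pair could not be told apart.

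*Cdh9*, a type II cadherin needed for the contacts of dentate granule cells with CA3 neurons, changed in the opposite direction. It lies at chr15:16778101-16857094 on the plus strand in the deposited table, downstream of the RefSeq start site shown above. Its level was 9.06, 8.45, 8.41 and 7.19 FPKM in dorsal libraries 1 to 4 and 12.4, 12.5, 12.9 and 11.9 FPKM in the ventral ones. The ventral libraries were tightly grouped and all lay above the dorsal range. Means were 8.28 ± 0.785 FPKM and 12.4 ± 0.417 FPKM (SD, n = 4), a 1.50-fold difference with a log2 fold change of 0.54 (SE 0.08, limma adjusted p = 0.0037). An antisense gene of GENCODE M21, *Gm49127*, overlaps it and has no value here.

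The neighbors of *Cdh9* on chromosome 15 did not pass the test. All 5 type II cadherins of this chromosome, *Cdh6*, *Cdh9*, *Cdh10*, *Cdh12* and *Cdh18*, lie between positions 13034200 and 23474418 and were tested. *Cdh10*, among the 5 highest members, had 36.2, 33.4, 31.3 and 33.6 FPKM in dorsal and 29.8, 35.6, 27.9 and 30.6 FPKM in ventral libraries, which overlap. Its log2 fold change was −0.12 with a 95% interval of −0.30 to 0.06 (limma adjusted p = 0.55). *Cdh12* had 16.8 ± 2.01 FPKM in dorsal and 14.7 ± 1.41 FPKM in ventral MEC, and *Cdh18* had 24.1 ± 3.62 and 26.2 ± 2.97 FPKM (SD, n = 4). *Cdh6*, expressed in early forebrain and in kidney, stood near the limit of the test at 1.38 ± 0.249 and 1.09 ± 0.168 FPKM. The log2 fold changes of these 3 genes were −0.18 (interval −0.39 to 0.03), 0.12 (−0.13 to 0.38) and −0.18 (−0.44 to 0.08). Within each library the level of *Cdh9* was 0.214 to 0.269 of that of *Cdh10* in dorsal and 0.351 to 0.463 in ventral MEC, a ratio chosen after the values were seen and given without a test.

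The other type II cadherins are on chromosomes 1, 2, 8 and 14. *Cdh11*, known from mesenchyme and also present in neurons, had 33.3, 31.4, 33.2 and 41.3 FPKM in dorsal and 30.3, 35.2, 34.5 and 34.4 FPKM in ventral libraries, ranges that overlap. Its log2 fold change was −0.04 (interval −0.24 to 0.16) and changed sign to 0.01 when libraries were rescaled to one total. *Cdh20* had 16.9 ± 0.896 FPKM in dorsal and 17.3 ± 1.66 FPKM in ventral MEC, with a log2 fold change of 0.02 (interval −0.15 to 0.20). *Cdh7* had 6.98 ± 0.580 FPKM and 5.95 ± 0.617 FPKM, with a log2 fold change of −0.20 (interval −0.40 to −0.0042) and a limma adjusted p of 0.30.

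*Cdh19*, the third cadherin of the chromosome 1 group and a gene of the glial lineage, had separate regions without passing the test. Its dorsal libraries 1 to 4 gave 2.15, 2.06, 1.76 and 2.08 FPKM and its ventral libraries 1.49, 1.31, 1.31 and 1.62 FPKM. All dorsal libraries were higher than all ventral libraries, with means of 2.01 ± 0.174 and 1.43 ± 0.150 FPKM and a log2 fold change of −0.31 (SE 0.09, limma adjusted p = 0.12). The oligodendrocyte markers listed above were lower in ventral MEC as well, and their part in this value was not tested. *Cdh5*, which encodes VE-cadherin of vessel walls, had 2.46 ± 0.334 FPKM in dorsal and 2.19 ± 0.245 FPKM in ventral MEC, with an interval of its log2 fold change from −0.35 to 0.11. None of the 7 endothelial markers was called by limma, against 3.60% of all genes tested, and 2 had an unadjusted p under 0.05, against 16.0%. The summed level of these 7 markers ran from 30.9 to 34.6 FPKM in dorsal and from 23.0 to 29.2 FPKM in ventral libraries. The part of that summed level in the value of *Cdh5* was not tested.

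*Cdh13*, which encodes T-cadherin, a cadherin held in the membrane by a lipid anchor and without a catenin-binding tail, had the largest log2 fold change of the 25 tested members. It spans chr8:118283733-119324921 on the plus strand. Dorsal libraries 1 to 4 gave 24.5, 17.4, 20.5 and 24.1 FPKM and ventral libraries 34.3, 32.9, 48.7 and 31.0 FPKM. Every ventral library was above every dorsal one, and ventral library 3 stood well above the other ventral libraries. Means were 21.6 ± 3.31 FPKM and 36.7 ± 8.09 FPKM (SD, n = 4), a 1.70-fold difference with a log2 fold change of 0.73 (SE 0.15, limma adjusted p = 0.023). Without ventral library 3 the log2 fold change was 0.59 (adjusted p = 0.033).

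*Cdh13* and *Cdh8*, both on chromosome 8, exchanged their order between the regions. The level of *Cdh13* was 0.432 to 0.673 of that of *Cdh8* in the same dorsal library and 1.15 to 2.05 of it in the same ventral library. This ratio does not change when a library is rescaled, was chosen after the values were seen and has no test. Of the 8 members on chromosome 8, 5 were tested, and these 2 were the ones called.

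Type I cadherins did not pass the test. *Cdh2*, the main neuronal cadherin of synaptic junctions, had 48.6, 42.3, 44.4 and 48.6 FPKM in dorsal and 53.9, 55.4, 50.7 and 52.4 FPKM in ventral libraries. The regions did not overlap, with means of 45.9 ± 3.16 and 53.1 ± 1.99 FPKM, yet the log2 fold change of 0.21 (SE 0.07) had a limma adjusted p of 0.13. *Cdh4*, or R-cadherin, had 1.35 ± 0.385 and 1.40 ± 0.191 FPKM, and *Cdh1*, the E-cadherin of epithelia, had 1.22 ± 0.357 and 1.22 ± 0.137 FPKM. The intervals of their log2 fold changes were wide, at −0.25 to 0.34 for *Cdh4* and −0.29 to 0.30 for *Cdh1*.

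**Figure D2:**
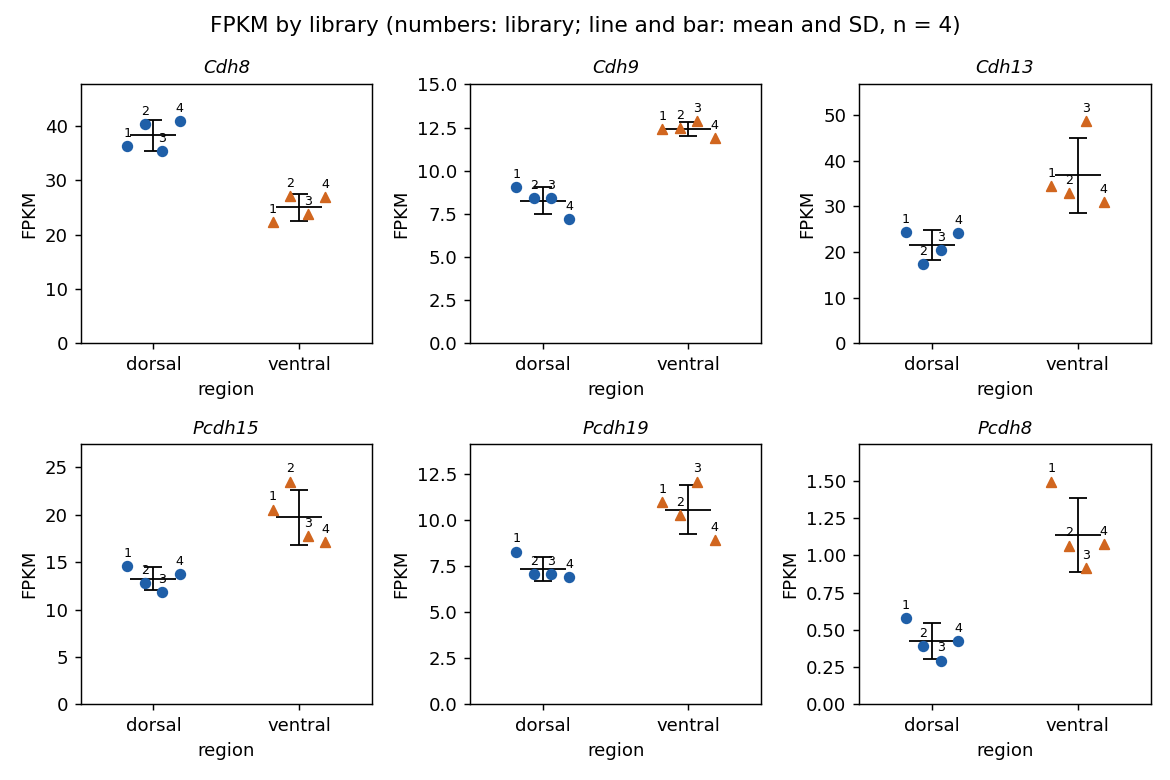
FPKM of the 5 called members and of *Pcdh8* in each numbered library, with dorsal libraries as circles, ventral libraries as triangles, and the mean and SD of 4 libraries as a line and bars on axes that start at 0. *Cdh8* is higher in all 4 dorsal libraries and the other genes are higher in all 4 ventral libraries, with *Cdh13* in ventral library 3 at 48.7 FPKM as the most distant point.

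*Pcdh15*, best known for the tip links that it forms with *Cdh23* in inner ear hair cells and present in the brain in oligodendrocyte precursors, was called higher in ventral MEC. Its 2 identifiers share the locus chr10:73099342-74646314. The values are those of ENSMUSG00000052613, and ENSMUSG00000046980, marked as low data, is listed at 0 in every library. Levels were 14.6, 12.8, 11.9 and 13.7 FPKM in dorsal and 20.6, 23.5, 17.8 and 17.1 FPKM in ventral libraries. The regions did not overlap. Means were 13.3 ± 1.20 and 19.7 ± 2.93 FPKM (SD, n = 4), a 1.49-fold difference with a log2 fold change of 0.53 (SE 0.10, limma adjusted p = 0.020). The 6 genes listed for oligodendrocyte precursors had summed levels of 29.8 to 34.7 FPKM in dorsal and 29.3 to 36.1 FPKM in ventral libraries, which overlap. Limma called 0 of these genes, against 3.60% of all genes tested, and 2 had an unadjusted p under 0.05, against 16.0% of all genes. The 6 genes did not move together, so their sum does not measure the content of precursors. *Pdgfra* (8.32 ± 0.3399 and 9.99 ± 0.232 FPKM, adjusted p = 0.064) and *Cspg4* (1.13 ± 0.129 and 1.47 ± 0.143 FPKM, adjusted p = 0.34) were higher in all 4 ventral libraries, as *Pcdh15* was. *Gpr17* had 5.83 ± 0.242 and 5.99 ± 0.432 FPKM (limma adjusted p = 0.89), with libraries that overlap. *Sox10* and *Olig2* had lower means in ventral MEC. *Sox10* had 5.22 ± 0.589 and 3.96 ± 0.325 FPKM (adjusted p = 0.093) and *Olig2* 4.21 ± 0.674 and 3.65 ± 0.383 FPKM. Ventral library 2 held 11.3 FPKM of *Vcan*, where the other ventral libraries had 4.84 to 5.93 FPKM. The part of these cells in the value of *Pcdh15* was not tested.

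The tip-link partner *Cdh23* was below the limit of the test, with 0.966 ± 0.317 FPKM in dorsal and 0.704 ± 0.387 FPKM in ventral MEC. Of the 10 listed genes that work with the tip link, 9 symbols were in the table and 3 were tested. Of these 1 was called, *Whrn*, a scaffold protein, with 11.9, 11.7, 9.90 and 10.03 FPKM in dorsal and 4.50, 5.28, 6.66 and 5.65 FPKM in ventral libraries. It was higher in dorsal MEC, opposite to *Pcdh15*, with a log2 fold change of −0.87 (SE 0.11, limma adjusted p = 0.0022), and 4 of the 9 genes lay below 0.1 FPKM.

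Delta-2 protocadherins had higher means in ventral MEC in all 5 cases, and 1 of the 4 tested passed. *Pcdh19*, an X-linked gene whose human mutations cause an epilepsy mostly of girls and whose product binds N-cadherin, lies at chrX:133582863-133707262 on the minus strand. It had 8.29, 7.08, 7.09 and 6.91 FPKM in dorsal and 10.97, 10.3, 12.1 and 8.92 FPKM in ventral libraries. The lowest ventral library was close above the highest dorsal one. Means were 7.34 ± 0.636 and 10.6 ± 1.33 FPKM (SD, n = 4), a 1.44-fold difference with a log2 fold change of 0.47 (SE 0.10, limma adjusted p = 0.024). The lincRNA *Gm26851* overlaps it on the other strand, at a mean of 0.210 FPKM.

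The other delta-2 members had smaller differences or lower levels. *Pcdh10* and *Pcdh17*, both of which bind the WAVE complex, had 24.7 ± 1.99 and 26.6 ± 1.40 FPKM and 11.6 ± 1.40 and 13.2 ± 0.589 FPKM in dorsal and ventral MEC, with log2 fold changes of 0.10 (interval −0.06 to 0.26) and 0.18 (−0.0027 to 0.37). *Pcdh18* had 1.43 ± 0.231 and 1.93 ± 0.172 FPKM, a log2 fold change of 0.27 with a limma adjusted p of 0.22. *Pcdh8*, or arcadlin, an activity-induced protocadherin that draws N-cadherin away from synapses, had a mean of 0.781 FPKM and was therefore not tested. Its dorsal libraries gave 0.582, 0.388, 0.294 and 0.428 FPKM and its ventral libraries 1.50, 1.07, 0.913 and 1.08 FPKM. The regions did not overlap, and the ratio of means, 2.69, was above those of the 4 members called ventral. With the minimum set at 0.1 FPKM, its log2 fold change was 0.58 (SE 0.12, limma adjusted p = 0.023), which on this scale understates the ratio.

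**Figure D3:**
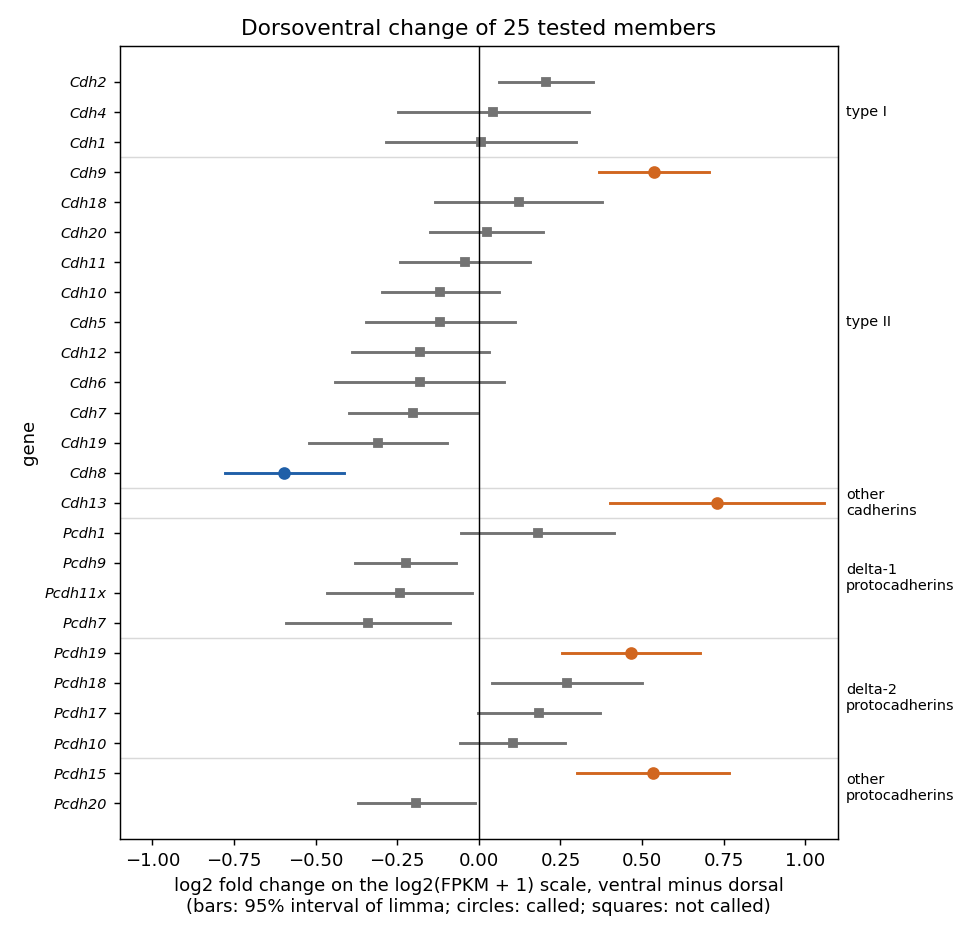
Log2 fold change of ventral against dorsal MEC on the log2(FPKM + 1) scale for the 25 tested members by subfamily, with 95% intervals of limma as bars, called members as circles and the others as squares. *Cdh8* at −0.60 is the one called member on the dorsal side and *Cdh13* at 0.73 is farthest on the ventral side, while no delta-1 protocadherin was called.

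None of the 4 delta-1 protocadherins was called by limma, although 3 had an unadjusted p under 0.05 and lower means in ventral MEC. *Pcdh9* had 122, 121, 118 and 131 FPKM in dorsal and 98.1, 117, 104 and 102 FPKM in ventral libraries. The highest ventral library came close to the lowest dorsal one without overlap. Means were 123 ± 5.79 and 105 ± 8.15 FPKM, with a log2 fold change of −0.22 (SE 0.07, adjusted p = 0.13). *Pcdh7* had 24.3 ± 3.82 and 18.9 ± 2.01 FPKM and a log2 fold change of −0.34 (adjusted p = 0.15), and X-linked *Pcdh11x* had 7.74 ± 0.538 and 6.42 ± 0.947 FPKM and a log2 fold change of −0.24 (adjusted p = 0.26). *Pcdh1* differed in sign, with 39.0, 39.2, 42.0 and 51.7 FPKM in dorsal and 46.9, 43.7, 56.5 and 47.7 FPKM in ventral libraries. Its libraries overlap, and its log2 fold change of 0.18 had an interval of −0.05 to 0.41. The summed level of this class was 189.8 to 220 FPKM in dorsal and 167 to 188.6 FPKM in ventral libraries. These ranges lie close without overlap. *Pcdh9*, which was not called, supplied 123 of 198 FPKM in dorsal and 105 of 179 FPKM in ventral MEC. The summed level of the delta-2 class was 41.5 to 48.7 and 52.9 to 54.1 FPKM.

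*Pcdh20*, of neither class, had 3.50, 3.45, 3.52 and 3.67 FPKM in dorsal and 3.24, 2.95, 2.63 and 3.09 FPKM in ventral libraries. All dorsal libraries were higher, with means of 3.54 ± 0.0977 and 2.98 ± 0.262 FPKM, but the log2 fold change of −0.19 had a limma adjusted p of 0.28. Overlap of libraries was also absent for *Cdh24*, at 0.516, 0.440, 0.537 and 0.560 FPKM in dorsal and 0.600, 0.711, 0.648 and 0.705 FPKM in ventral MEC. With the minimum at 0.1 FPKM, its log2 fold change of 0.14 had a limma adjusted p of 0.52.

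The remaining members were near the floor of the data and were not tested. *Cdh22* averaged 0.339 FPKM. The muscle cadherin *Cdh15* had 0.0521, 0, 0.0234 and 0 FPKM in dorsal and 0.119, 0.117, 0.0856 and 0.0562 FPKM in ventral libraries, at a deposited locus that reaches far beyond its GENCODE M21 gene. The endothelial protocadherin *Pcdh12* averaged 0.0399 FPKM and *Cdh3*, or P-cadherin, 0.0226 FPKM. *Cdh17* of intestine and *Cdh16* of kidney averaged 0.00538 and 0.00226 FPKM, and *Cdh26* is listed at 0 in every library.

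Leaving out single libraries ended some of the 5 calls. It could turn no direction among them, because their dorsal and ventral libraries do not overlap. *Cdh8* and *Cdh9* were called in all 8 fits, with log2 fold changes of −0.64 to −0.54 and 0.48 to 0.58. Without dorsal library 2, dorsal library 3 or ventral library 1, the other 3 lost their calls, so that 1 ventral member remained. Over all genes, the ventral calls fell from 198 to 91, 123 and 91 in the same fits. The adjusted p of *Cdh13* was then 0.073, 0.066 and 0.060, at log2 fold changes of 0.63, 0.71 and 0.75. Those of *Pcdh15* were 0.069, 0.059 and 0.069, at 0.52, 0.49 and 0.51. *Cdh13* and *Pcdh15* thus moved just past the threshold. The adjusted p of *Pcdh19* was 0.081, 0.069 and 0.082, at 0.45 each time. *Pcdh19* also lost its call without dorsal library 4 (adjusted p = 0.071, log2 fold change 0.44) and without ventral library 3 (0.064, 0.40).

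**Figure D4:**
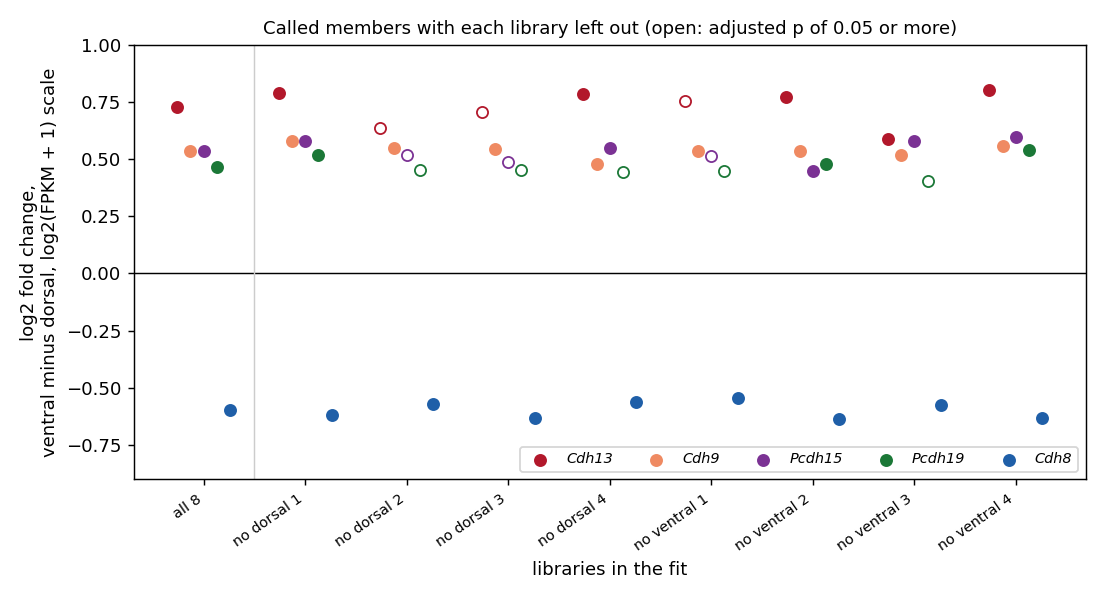
Log2 fold change of the 5 called members, ventral minus dorsal on the log2(FPKM + 1) scale, with all 8 libraries and with each library left out, where open points have an adjusted p of 0.05 or more. *Cdh8* stays between −0.64 and −0.54 and *Cdh9* between 0.48 and 0.58 with filled points in every fit, while *Pcdh19* has filled points in 3 of the 8 fits without a library.

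The intracellular partners of these proteins were measured from lists. Of 23 listed catenins and junction adaptors, 22 were in the table and 19 were tested. Limma called none of them, against 3.60% of all genes tested, and 2 had an unadjusted p under 0.05, against 16.0% of all genes. The median log2 fold change of the 19 genes was 0.10, with a range from −0.39 to 0.27. *Pkp4*, a relative of p120 catenin, had 103 ± 5.91 FPKM in dorsal and 106 ± 4.27 FPKM in ventral MEC. *Ctnnb1*, which encodes beta-catenin, had 86.0, 82.9, 79.3 and 76.9 FPKM in dorsal and 99.9, 96.3, 89.4 and 101 FPKM in ventral libraries, which did not overlap, and a log2 fold change of 0.25 with a limma adjusted p of 0.068. Limma called none of the 9 WAVE complex genes and none had an unadjusted p under 0.05, beside the same shares of all genes. The log2 fold changes of these 9 genes ran from −0.10 to 0.13. *Nckap1* and *Cyfip2*, the highest of them, had 213 ± 10.5 and 207 ± 8.27 FPKM and 150 ± 6.11 and 148 ± 13.6 FPKM in dorsal and ventral MEC.

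Among other cadherin superfamily genes, 26 of 28 listed symbols were in the table and 11 were tested. Of these 1 was called in each direction, against 1.45% of all genes for ventral and 2.15% for dorsal calls. *Fat3*, a giant cadherin that shapes dendrites in the retina, had 39.4, 38.5, 36.3 and 39.5 FPKM in dorsal and 26.8, 28.9, 26.6 and 26.4 FPKM in ventral libraries. It fell by 0.48 on the log2(FPKM + 1) scale (SE 0.06, limma adjusted p = 0.0019). *Dsc3*, a desmosomal cadherin, had 5.56, 4.69, 4.01 and 4.89 FPKM in dorsal and 10.8, 9.14, 8.45 and 8.83 FPKM in ventral libraries. It rose by 0.83 (SE 0.10, adjusted p = 0.0019), more than any of the 25 members tested.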

How the data were processed

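FPKM values per gene and library, and their means per region, were deposited by the authors, who processed raw data with CASAVA 1.8, aligned fragments with TopHat2 2.0.8 and obtained FPKM from Cuffdiff 2 with the Ensembl annotation of GRCm38. The deposited comparison table also holds the authors' fold changes, p-values and q-values, which were not used. A long table of fragment numbers, by condition and replicate, could not be matched to samples, which left 4 per-sample columns unused, no count test was run, and the depth is unknown. Dorsal and ventral RNA came from the same 4 groups of mice, but libraries could not be paired: the sources used here do not give the group of a library, and in the regions used here both libraries with the same header number fall in 1 region.

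Members, gene lists and the naming rule were chosen with earlier results of these data known. The rule names with all library values the called members, those called in an alternative with 8 libraries, the 5 with the highest mean FPKM and those whose regions do not overlap, and names the others by means. Of a list it takes the called genes or, where none is called, the 2 highest. Genes that the authors marked as having enough alignments and with a mean of at least 1 FPKM were tested with limma (3.58.1, R 4.3.3) and a mean-variance trend, after adding 1 and taking log2, with Benjamini-Hochberg adjustment over all 13674 genes, an adjusted p under 0.05 and a ratio beyond 1.2. The fit was tested on simulated data. Gene positions were compared with GENCODE M21, and promoters came from a RefSeq table of GRCm38.p6. Python 3.11.15, NumPy 2.4.6, pandas 2.3.3 and matplotlib 3.10.9 were used. Alternatives changed the constant, the filters, the ratio, the scaling, the trend, sample weights, the regions and the libraries.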

Additional observations from a re-analysis of the deposited data

Results flagged for a closer look

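In 3 of the 50 groups of 4 libraries checked for the tested members, the highest or lowest library lay far from the other libraries by Dixon's criterion, and chance alone flags about 1 in 20 groups. *Pcdh19* was highest in dorsal library 1, at 8.29 FPKM, where the other dorsal libraries had 6.91 to 7.09 FPKM. *Cdh6* was highest in ventral library 3, at 1.35 FPKM against 0.993 to 1.03 FPKM. *Cdh11* was lowest in ventral library 1, at 30.3 FPKM against 34.4 to 35.2 FPKM.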

How the results depend on the processing

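The 5 members called kept their calls under each of 11 alternatives that used all 8 libraries and the regions of the comparison table. *Pcdh8* was added, for 5 ventral members, with a minimum of 0.1 FPKM or of 1 FPKM in either region. It passed the latter filter only through ventral MEC, where it is high (0.423 FPKM in dorsal and 1.14 FPKM in ventral MEC), so that its call there is no further support. Leaving out each library in turn gave 1 to 4 ventral members, 1 without dorsal library 2, dorsal library 3 or ventral library 1. Each header region holds 2 libraries used here as dorsal and 2 used here as ventral. A difference between the regions used here therefore cancels under the headers, and signs there do not test it. With the headers' regions, 0 ventral members, 0 dorsal members, 0 tip-link partners, 0 other superfamily genes and 0 cell type markers were called, against 4, 1, 1, 2 and 18, and 4 of the 5 called members changed sign. The 4 libraries of unchanged region also gave 0 for each of these counts. Log2 fold changes there were −0.39 for *Cdh8*, 0.44 for *Cdh9*, 0.49 for *Cdh13*, 0.57 for *Pcdh15* and 0.29 for *Pcdh19*. The direction of these 5 called members could not change there, as their dorsal and ventral libraries do not overlap. Over all genes, 198 ventral and 294 dorsal calls became 91 to 191 and 157 to 341 without single libraries, 201 and 195 after rescaling, and 0 and 1 with the headers' regions. Beyond the cancelling under the headers, the cause of these shifts was not tested. With the headers' regions the log2 fold change turned to −0.0078 for *Cdh1*, −0.011 for *Pcdh1*, −0.10 for *Cdh9*, −0.17 for *Pcdh18*, −0.18 for *Pcdh19*, −0.23 for *Cdh13*, 0.024 for *Cdh7*, 0.025 for *Pcdh20*, 0.048 for *Cdh19*, 0.092 for *Cdh10*, 0.086 for *Pcdh9*, 0.098 for *Pcdh11x*, 0.11 for *Cdh11*, 0.12 for *Cdh5*, 0.17 for *Pcdh7* and 0.20 for *Cdh8* and *Cdh12*. In the 4-library fit it turned to −0.00090 for *Cdh1*, 0.0060 for *Cdh5*, 0.019 for *Cdh12* and 0.064 for *Cdh11*. Sample weights turned *Cdh1* to −0.055 and rescaling turned *Cdh11* to 0.0056. Without single libraries, members near 0 changed sign, with ranges of −0.077 to 0.093 for *Cdh1*, −0.031 to 0.15 for *Cdh4*, −0.088 to 0.040 for *Cdh11* and −0.011 to 0.082 for *Cdh20*. No paired analysis was possible because the header numbers, which run from 1 to 4 for both letters, place both libraries of a number in 1 region under the regions used here, and the group of mice behind each library is not given in the sources used here. Members below 1 FPKM were not tested, and without fragment totals their counting error is unknown.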
